A study of Rattus norvegicus with 56 samples.

Results

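The miR-30 family was followed through 3 rat tissues by small RNA sequencing. The 7 family members described are the 5p arms miR-30a-5p, miR-30b-5p, miR-30c-5p, miR-30d-5p and miR-30e-5p and the 3p arms miR-30a-3p and miR-30e-3p. They were chosen by name, and all 7 were listed for each tissue, among 682 microRNAs listed for any tissue. There were 56 samples in 8 sets of 7. All came from Sprague-Dawley rats on embryonic day 19 and were myocardium from wax blocks of fetal hearts, amniotic fluid supernatant, and maternal serum. The NC dams had been given distilled water by gavage. Dams of the other groups had received dimethadione (DMO), the active metabolite of an anticonvulsant, by gavage at 5 ml/kg of a 60 mg/ml solution, starting on day 8 and repeated every 12 h for 6 doses. DMO-exposed fetuses with a ventricular septal defect formed the VSD group and those without one the non-VSD group, so both carry the exposure. Serum was sampled from NC and VSD dams only. In myocardium and in amniotic fluid the same 7 NC samples stand in both comparisons with NC. The dam or litter of each fetus was not given in the sources used here, so p-values measure the spread between these samples.

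MicroRNAs are short RNAs cut from a hairpin precursor, and each hairpin can yield a mature strand from its 5p and from its 3p side. The strand that is mostly loaded into the silencing complex is called the guide and the other the passenger. For miR-30 the guide is the 5p arm. It recognises target messages through its seed, bases 2 to 8 from the 5′ end, so that guides with one seed share most predicted targets. The family is abundant in heart muscle and kidney, and in cardiac cells it is known for restraining matrix and autophagy genes.

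The mature sequences show why the family is read as a unit and where its members can be told apart. Capitals mark the seed in the RefSeq sequences for assembly GRCr8, which were found for 4 of the 7 members and for 6 of the 11 arms of the family. The 5p arms come first, followed by the 3p arms and by miR-384-5p, a microRNA outside the family with the same seed.
miR-30a-5p: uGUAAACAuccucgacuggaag
miR-30c-5p: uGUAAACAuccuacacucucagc
miR-30e-5p: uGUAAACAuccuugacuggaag
miR-30a-3p: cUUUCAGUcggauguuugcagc
miR-30c-1-3p: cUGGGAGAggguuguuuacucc
miR-30c-2-3p: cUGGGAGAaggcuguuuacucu
miR-384-5p: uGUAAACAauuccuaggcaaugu
The 3 printed 5p arms and miR-384-5p carried GUAAACA, and they were the 4 entries with this seed among 693 mature rat entries. No mature sequence was found for miR-30b-5p and miR-30d-5p, so these entries do not cover them. Position by position from the 5′ end, miR-30a-5p and miR-30e-5p differed at 1 base (C13U), and miR-30a-5p and miR-30c-5p at 5 bases. Depending on how the reads were counted, which the sources used here do not give, reads of miR-30a-5p and miR-30e-5p could have been shared between them. No sequence of miR-30e-3p was found, so the same could not be checked for miR-30a-3p and miR-30e-3p. The 3p arms had other seeds, UUUCAGU in miR-30a-3p and UGGGAGA in both miR-30c 3p arms.

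miR-30a lay on chr9, with its 5p arm at chr9:33233946-33233967 and its 3p arm at chr9:33233987-33234008 on the plus strand. miR-30e-5p lay at chr5:139637504-139637525 on the minus strand. miR-30c-5p was made from 2 genes with one mature sequence, Mir30c1 at chr5:139634505-139634527 on the minus strand and Mir30c2 at chr9:33253695-33253717 on the plus strand. Mir30e and Mir30c1 both lay within the span of Nfyc, a gene for a subunit of the nuclear transcription factor Y. Mir30b and Mir30d were neighbours on chromosome 7. miR-384-5p lay at chrX:74490939-74490961 on the minus strand. The counts of miR-30c-5p could not be assigned to one of its 2 genes.

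The libraries held 1694811 to 9371130 counts in myocardium, 147609 to 581350 in maternal serum and 78188 to 331787 in amniotic fluid, so that a member was measured least precisely in amniotic fluid. Counts were scaled by the trimmed mean of M-values (TMM) to counts per 1000000 (CPM), and differences are log2 fold changes from edgeR's quasi-likelihood test, called at an adjusted p under 0.05 over every microRNA tested. Myocardium is sensitive to this scaling. With the library total in place of TMM, the median log2 fold change over all 469 microRNAs tested moved from -0.05 to 0.32 for VSD, and over the 456 tested for non-VSD from -0.07 to 0.13. Sums of cell type markers also differed between groups at the median, and their part in the results was not tested. In both myocardium comparisons with NC, edgeR called none of these markers. In myocardium the summed level of 4 red blood cell microRNAs had a median of 33790 CPM in NC (range 2651 to 91137). It was 7004 in non-VSD (3255 to 33986) and 7523 in VSD (3435 to 25159). Medians of 6 summed heart and skeletal muscle microRNAs were 37453 CPM in NC (4080 to 99046), 41717 in non-VSD (23301 to 45456) and 20215 in VSD (5426 to 41939). Those of 7 epithelial microRNAs were 1347 CPM in NC (243 to 13732), 1659 in non-VSD (316 to 6510) and 3223 in VSD (1935 to 14925). In amniotic fluid the red blood cell sum was 22339 CPM in NC (15088 to 34906), 63811 in non-VSD (25498 to 86339) and 40522 in VSD (18171 to 143900). The sum of 4 white blood cell microRNAs had medians of 1523, 526 and 571 CPM in NC, non-VSD and VSD myocardium and of 2968, 7342 and 2820 CPM in the fluids. The sum of 7 epithelial microRNAs was 111727, 72691 and 113255 CPM in NC, non-VSD and VSD fluid, and the muscle sum was 167, 786 and 478 CPM. The liver marker had medians of 631, 595 and 447 CPM in NC, non-VSD and VSD myocardium. In the fluids these were 970, 972 and 892 CPM. Ranges of the groups overlapped for the white blood cell, epithelial, muscle and liver values. In bulk samples such as these, fewer cells of a type and less RNA per cell cannot be told apart.

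Myocardium carried the most miR-30. The 5 guide arms together made up 11.1% of all microRNA counts at the median of the 21 myocardium samples (range 5.65 to 17.7), against 3.27% in 14 serum samples (1.69 to 4.56) and 0.554% in 21 amniotic fluid samples (0.229 to 1.18). The 3 ranges did not overlap. A mature microRNA is read from end to end, so its share needs no length correction. Shares and arm ratios are those of counts. How evenly different sequences were captured was not measured here, so they need not equal shares of molecules. Amniotic fluid libraries were made with another kit and sequencer than those of the other tissues, and for that fluid the tissue and the kit cannot be told apart.

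In myocardium miR-30a-5p was the leading member, with 4.98% of the library at the median of 21 samples (2.55 to 6.49). It stood 5th of 661 microRNAs by mean share. miR-30d-5p followed with 2.86% (1.46 to 6.40) and rank 8, and miR-30e-5p with 2.34% (1.19 to 5.42) and rank 9. The ranges of these 3 overlapped over most of their length. miR-30c-5p had 0.577% (0.351 to 1.27) and miR-30b-5p 0.111% (0.0443 to 0.196), with no overlap between these 2. The passenger arms were lower again, miR-30e-3p at 0.0632% (0.0343 to 0.109) and miR-30a-3p at 0.0463% (0.0192 to 0.0643), and their ranges overlapped.

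In maternal serum the order changed. miR-30d-5p led with 2.23% (1.18 to 3.34) and rank 7 of 518, and its lowest sample exceeded the highest miR-30a-5p sample, which reached 0.909%. miR-30a-5p had a median of 0.556%, miR-30e-5p of 0.215% (0.13 to 0.38) and miR-30c-5p of 0.0660% (0.0440 to 0.128), each overlapping the next. miR-30a-3p at 0.0534% (0.0353 to 0.0766) lay above miR-30b-5p at 0.0382% (0.0203 to 0.0552), although their ranges overlapped. miR-30e-3p was the lowest at 0.0251% (0.00874 to 0.0389).

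In amniotic fluid miR-30d-5p was again first, with 0.341% (0.112 to 0.923) and rank 48 of 523. Its lowest samples overlapped the highest of miR-30a-5p, and the others overlapped one another. miR-30a-5p had a median of 0.0807% (0.0170 to 0.149), miR-30a-3p of 0.0538% (0.0159 to 0.133), miR-30c-5p of 0.0482% (0.00624 to 0.0720), miR-30e-5p of 0.0441% (0.00106 to 0.0883), miR-30e-3p of 0.0299% (0 to 0.0818) and miR-30b-5p of 0.0156% (0 to 0.0358). Counts were small here. Over the 21 fluids miR-30d-5p gave 12485 counts in all, miR-30e-3p 962 and miR-30b-5p 562, and the latter pair were each at 0 in 2 samples. A count of 0 allows up to 3 counts, which was 9.04 to 38.4 CPM of the unscaled library total (counting error only).

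**Figure D1:**
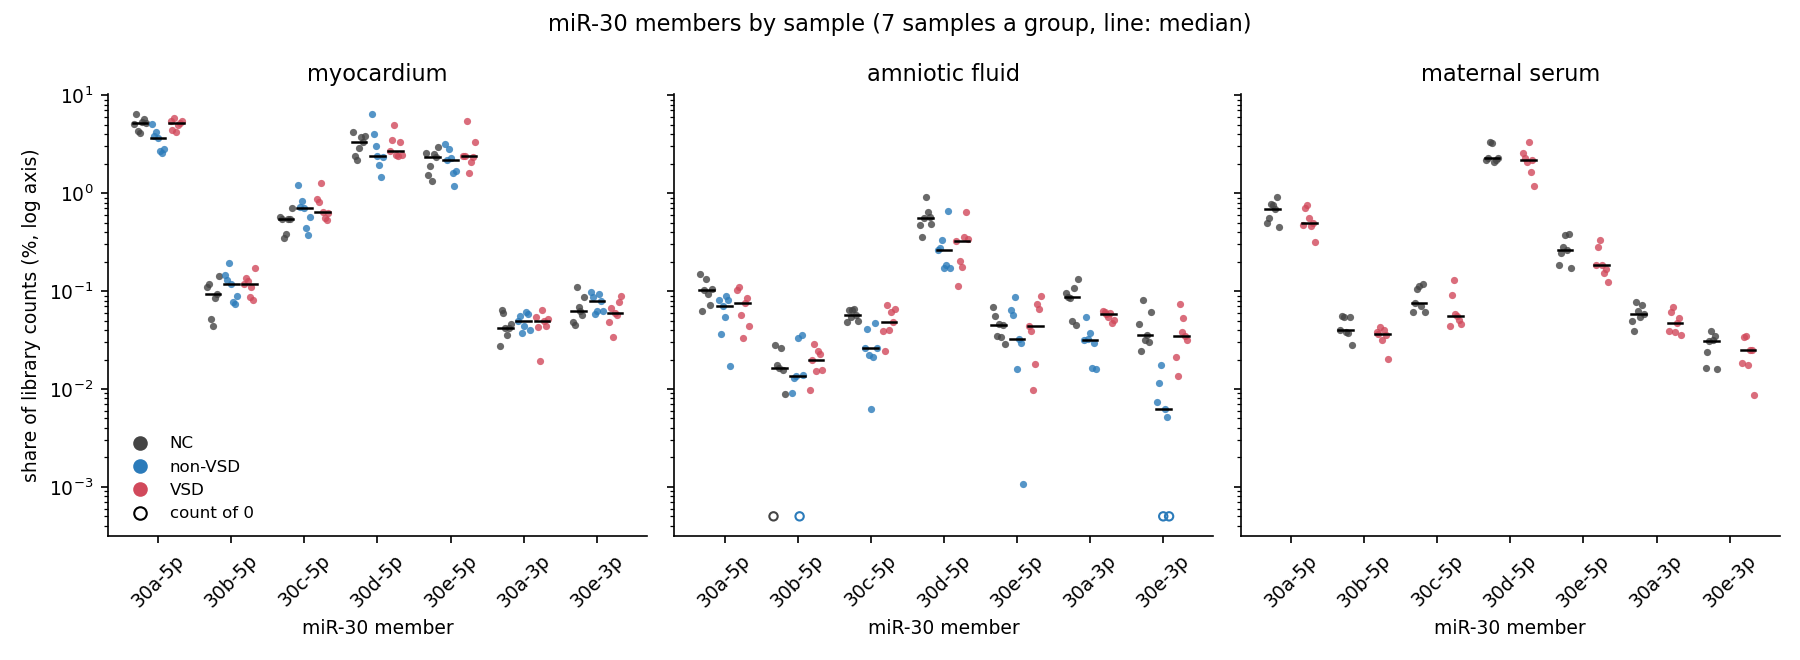
Share of library counts on a log axis for the 7 miR-30 members in each sample of the 3 tissues, coloured by group, with the group median as a line and open circles for a count of 0. miR-30a-5p leads in myocardium with a median of 4.98%, miR-30d-5p leads in serum and in amniotic fluid, and the 4 open circles are amniotic fluid samples.

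The make-up of the guide arms therefore differed by tissue. In NC myocardium miR-30a-5p made up 46.8% ± 6.21 of guide-arm counts (SD, n = 7), miR-30d-5p 28.6% ± 4.25, miR-30e-5p 19.2% ± 3.36, miR-30c-5p 4.60% ± 0.455 and miR-30b-5p 0.801% ± 0.227. In NC serum miR-30d-5p made up 70.2% ± 5.54 and miR-30a-5p 18.6% ± 3.59, and in NC amniotic fluid 71.3% ± 5.77 and 13.1% ± 3.68. miR-30a-5p was the highest guide arm in 19 of 21 myocardium samples, with miR-30d-5p above it in 2 non-VSD samples. miR-30d-5p was the highest in 21 of 21 amniotic fluid and 14 of 14 serum samples.

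**Figure D2:**
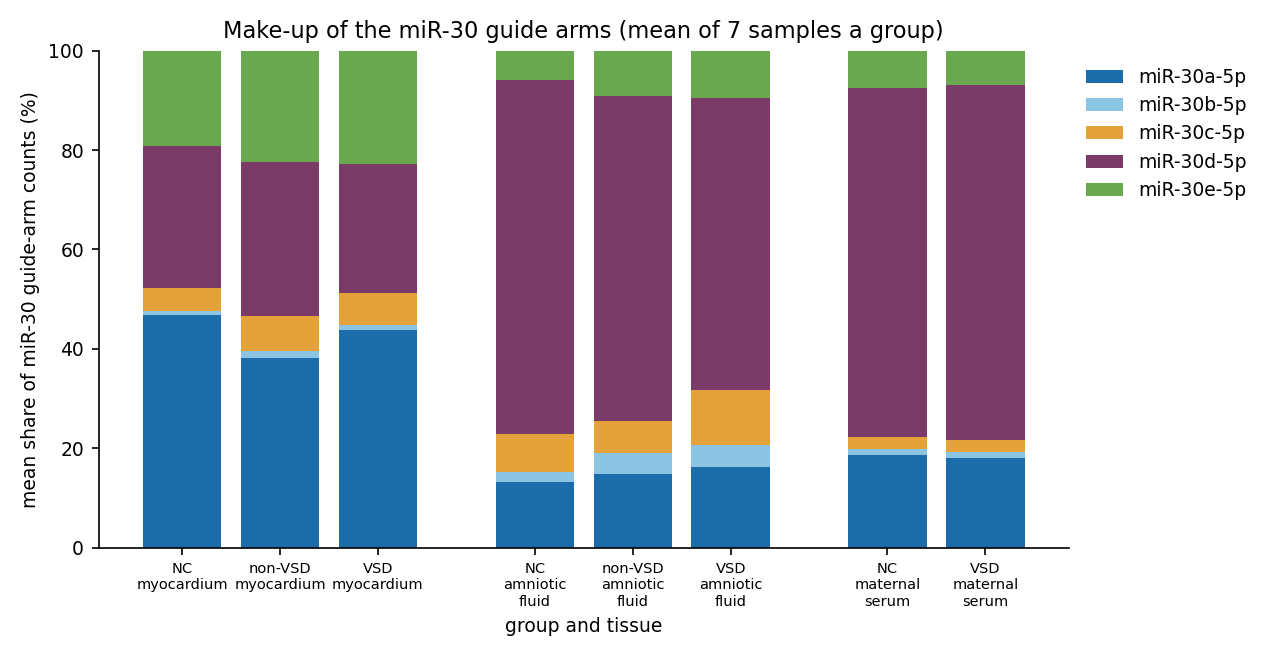
Mean share of each of the 5 guide arms in all miR-30 guide-arm counts, on an axis from 0 to 100%, for the 8 groups of 7 samples. miR-30a-5p is the largest part in myocardium (46.8% in NC) and miR-30d-5p in amniotic fluid (71.3% in NC) and serum (70.2% in NC).

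The difference between tissues was tested where kit and sequencer were the same, for NC serum against NC myocardium. With edgeR, 6 of the 7 members differed at an adjusted p under 0.05, in a comparison where 78.0% of all 382 microRNAs tested did. miR-30a-5p was lower in serum by a log2 difference of -2.70 (SE 0.19, adjusted p = 1.12e-09), miR-30e-5p by -2.76 (SE 0.26, adjusted p = 3.11e-08) and miR-30c-5p by -2.34 (SE 0.21, adjusted p = 2.06e-08), all by edgeR. Smaller negative differences passed for miR-30b-5p, -0.77 (SE 0.25), and miR-30e-3p, -1.11 (SE 0.31). miR-30a-3p was higher in serum by 0.62 (SE 0.22, edgeR adjusted p = 0.0175), a call that was lost with the library total as scale (0.38, adjusted p = 0.145) and with DESeq2 (0.39, adjusted p = 0.139), which called 79.1% and 81.4% of all microRNAs. miR-30d-5p was not called, with -0.14 and a 95% interval of -0.54 to 0.27. The median over all microRNAs in this comparison was -0.57, and -0.86 with the library total. Wax-embedded hearts and serum also differ in preservation, extraction kit and the animal sampled, and these cannot be told apart from the tissue.

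In myocardium the question was whether DMO-exposed hearts, with or without a defect, differed from NC hearts. miR-30a-5p, the leading guide, ranged from 52716 to 68809 CPM in NC with a median of 57949, from 32728 to 54638 in VSD with a median of 42610, and from 25084 to 55240 in non-VSD with a median of 33361. All 7 VSD and all 7 non-VSD samples lay below the NC median, 5 of 7 VSD and 6 of 7 non-VSD samples lay below the lowest NC sample, and the groups overlapped. The log2 fold change was -0.43 for VSD (SE 0.14, 95% interval -0.73 to -0.12) and -0.76 for non-VSD (SE 0.18, interval -1.15 to -0.37). Neither was called by edgeR, with an unadjusted p of 0.00862 and an adjusted p of 0.104 for VSD, and 0.000752 and 0.0686 for non-VSD.

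The value for VSD depended on the scale. With the library total it was -0.03, since miR-30a-5p took 5.26% of the library at the median in both NC and VSD, although the median microRNA had then moved to 0.32. For non-VSD the library total gave -0.55 and the median share was 3.67%. DESeq2 called miR-30a-5p in both comparisons, with an adjusted p of 0.0455 for VSD and 0.00113 for non-VSD, and it called 9.81% and 10.3% of all microRNAs there. Without the library NC replicate 2, edgeR gave an adjusted p of 0.0495 for VSD (log2 fold change -0.49) and 0.0376 for non-VSD (-0.79), where edgeR called 16.2% and 4.18% of all microRNAs. Without non-VSD replicate 1 it gave 0.0237 (-0.91), with 0.439% of microRNAs called. The remaining fits with 1 sample left out did not call miR-30a-5p, 13 for VSD and 12 for non-VSD. Their edgeR adjusted p reached 0.207 and 0.160.

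The other 6 members were not called in either comparison. In VSD against NC their log2 fold changes ran from -0.63 for miR-30e-3p (SE 0.33) and -0.46 for miR-30d-5p (SE 0.24) to 0.14 for miR-30c-5p (SE 0.21), and with miR-30a-5p 6 of 7 were below 0, with a median of -0.41. In non-VSD they ran from -0.27 for miR-30e-5p (SE 0.26) and miR-30d-5p (SE 0.32, value -0.27) to 0.22 for miR-30c-5p (SE 0.26), with a median over the 7 of -0.14. These medians stand beside -0.05 and -0.07 over all microRNAs tested. The scale turned this direction. With the library total 3 of 7 members were below 0 and 4 above in each comparison, and the members' median was 0.04 for VSD and 0.13 for non-VSD, beside 0.32 and 0.13 over all microRNAs. In all, 0 of 7 members were called for VSD, where 0.426% of microRNAs were, and 0 of 7 for non-VSD, where 0.219% were. At an unadjusted p under 0.05, 1 of 7 members was lower in each comparison, miR-30a-5p, against 12.6% of all microRNAs lower for VSD and 8.99% for non-VSD.

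**Figure D3:**
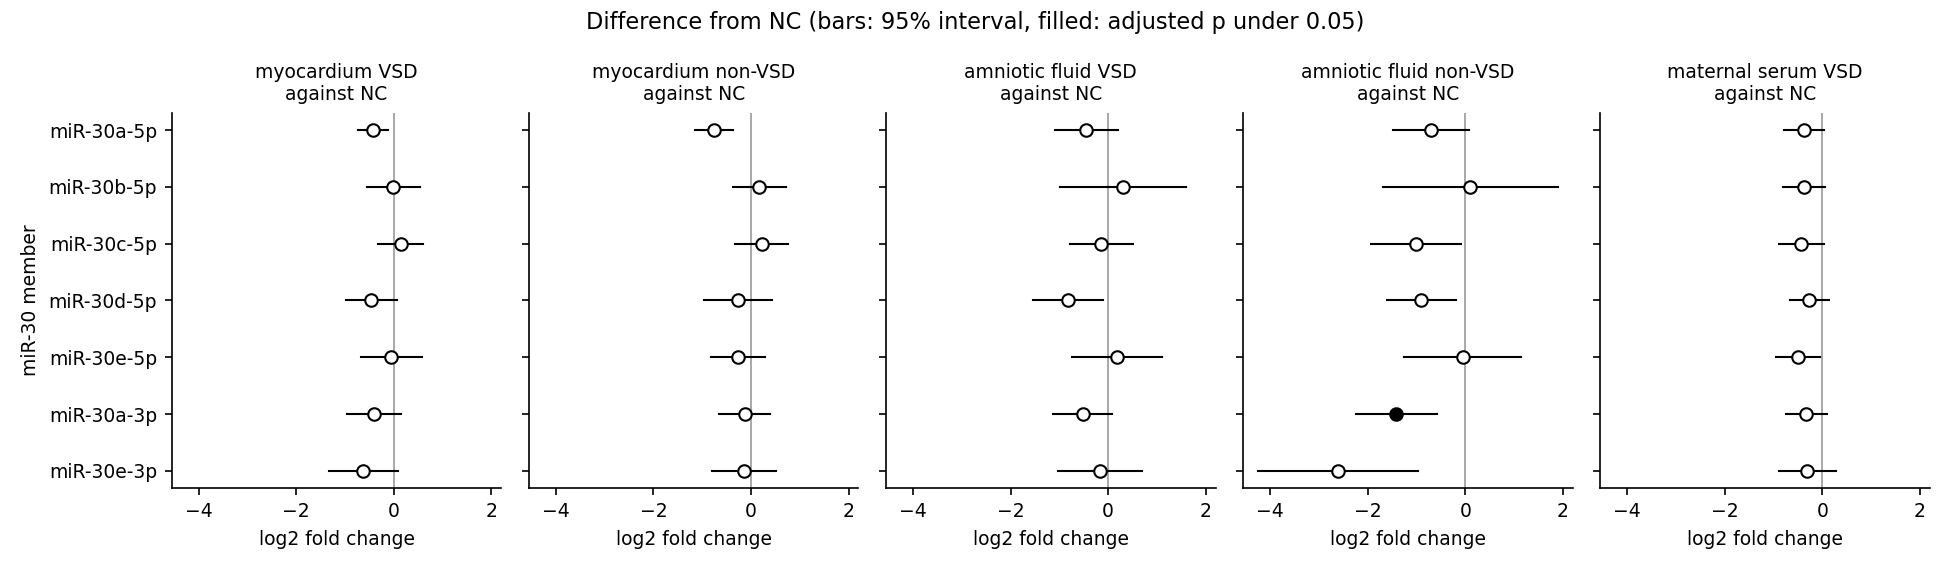
log2 fold change of the 7 miR-30 members against NC by edgeR in 5 comparisons, with 95% intervals as bars and filled points where the adjusted p is under 0.05. The only filled point is miR-30a-3p in non-VSD amniotic fluid (-1.42), the intervals are widest in amniotic fluid, and all 7 points lie below 0 in maternal serum.

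Shares within the family do not depend on the scaling between libraries, and they are given as a description with no test, noticed after the values were seen. miR-30c-5p made up 3.97 to 5.41% of guide-arm counts in the 7 NC hearts (median 4.49) and 6.54 to 7.66% in the 7 non-VSD hearts (median 7.45), with no overlap. Of the 456 microRNAs tested in that comparison, 5.48% were likewise higher in every non-VSD than in every NC heart when counted per summed guide-arm count. VSD hearts ran from 4.63 to 7.59% (median 7.15) and overlapped the upper end of the NC range and most of the non-VSD range. In the opposite direction, miR-30a-5p made up 40.3 to 58.4% in NC (median 47.3), 31.7 to 45.1% in non-VSD (38.4) and 33.4 to 49.2% in VSD (45.4). These shares are linked. They sum to a fixed total in each sample, so a lower share of miR-30a-5p raises those of the others. The level of miR-30c-5p itself gave a log2 fold change of 0.22 in non-VSD against NC (SE 0.26) and was not called. miR-30b-5p, which shares no gene cluster with either, made up 0.505 to 1.10% in NC (median 0.775), 0.903 to 1.77% in non-VSD (1.2) and 0.695 to 1.43% in VSD (1.02).

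**Figure D4:**
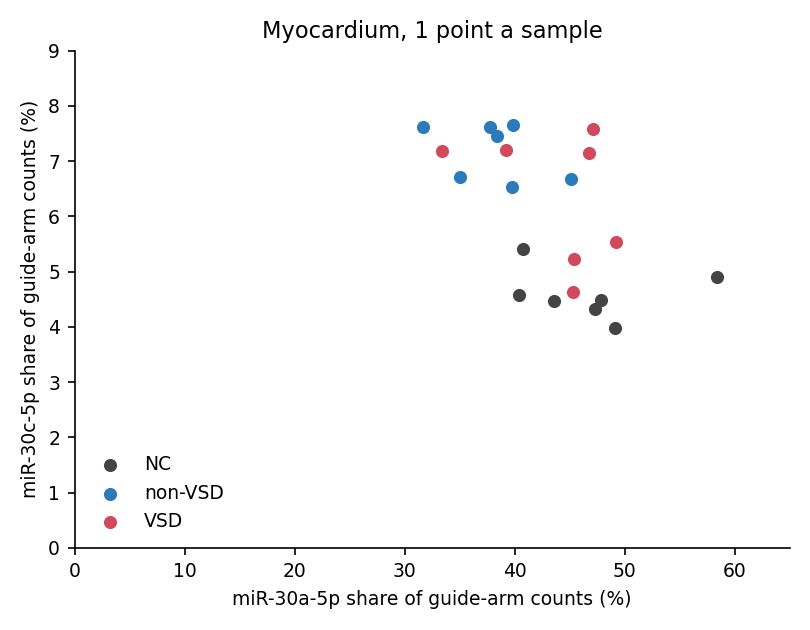
Share of miR-30c-5p against share of miR-30a-5p in miR-30 guide-arm counts, in percent, for 21 myocardium samples coloured by group. Non-VSD samples lie at 6.54 to 7.66% miR-30c-5p, above every NC sample (3.97 to 5.41%), and VSD samples spread from 4.63 to 7.59%. The guide-arm shares of a sample sum to a fixed total, so both axes are linked.

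Between VSD and non-VSD hearts, the comparison within exposed fetuses, 0 of 7 members were called by edgeR, as for 0.0% of 483 microRNAs. miR-30a-5p gave 0.38 (SE 0.17, 95% interval 0.03 to 0.73, edgeR adjusted p = 0.426), and 1 of 7 VSD hearts was below the non-VSD median. It was the 1 member of 7 with an unadjusted p under 0.05, beside 11.6% of all microRNAs in either direction, and DESeq2 called 0 of the 7, as for 0.0% of microRNAs. With the library total the median over all microRNAs moved from 0.02 to 0.19 in this comparison. The remaining members ran from -0.46 for miR-30e-3p (SE 0.31) to 0.27 for miR-30e-5p (SE 0.29).

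Among the comparisons of groups within a tissue, amniotic fluid held the only member called by edgeR. miR-30a-3p, the passenger strand of miR-30a, ranged from 480 to 1260 CPM in NC with a median of 837, from 161 to 547 in non-VSD with a median of 311, and from 522 to 656 in VSD with a median of 577. All 7 non-VSD samples lay below the NC median and 6 of 7 below the lowest NC sample, with 1 non-VSD sample inside the NC range. In non-VSD against NC it fell by 1.42 on the log2 scale (SE 0.40, 95% interval -2.25 to -0.59, edgeR adjusted p = 0.0464). The call stood near its threshold. It was lost when any of NC replicates 1, 2, 3, 5 or 7 or non-VSD replicates 3, 4, 5 or 7 was left out, with log2 fold changes of -1.29 to -1.48 and adjusted p of 0.0569 to 0.112, and without the filter on low counts (adjusted p = 0.106).

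miR-30e-3p, the passenger strand of miR-30e, had the largest difference of the 7. Its counts were 46, 20, 122, 45, 89, 67 and 49 in NC replicates 1 to 7, 13, 38, 22, 0, 10, 4 and 0 in non-VSD replicates 1 to 7, and 39, 11, 141, 93, 61, 43 and 49 in VSD replicates 1 to 7. On the CPM scale NC ranged from 234 to 805, non-VSD from 0 to 171 and VSD from 133 to 651, so that every non-VSD sample lay below every NC sample, which was so for 2.07% of the 242 microRNAs tested. The log2 fold change in non-VSD against NC was -2.61 (SE 0.78, 95% interval -4.24 to -0.97), with an edgeR adjusted p of 0.0585 just outside the threshold. It was called by DESeq2 (adjusted p = 0.00431), which called 12% of all microRNAs, and by edgeR with the library total as scale (adjusted p = 0.0462), where 5.79% were called. With each sample left out in turn, edgeR never called it, with adjusted p of 0.0508 to 0.145.

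Among the guide arms of non-VSD amniotic fluid, miR-30c-5p ranged from 48.4 to 506 CPM (median 264) against 455 to 707 in NC (median 608), with 6 of 7 non-VSD samples below the lowest NC sample. Its log2 fold change was -1.01 (SE 0.44, edgeR adjusted p = 0.201). miR-30d-5p, the leading member, ranged from 1332 to 7052 CPM (median 2627) against 3458 to 9484 (median 5546), and gave -0.90 (SE 0.34, adjusted p = 0.119). It was called without non-VSD replicate 6, the sample with the highest level in its group, where edgeR gave -1.33 and an adjusted p of 0.0165 and called 8.37% of all microRNAs. In the other 13 fits with 1 sample left out edgeR did not call it, with adjusted p up to 0.223. miR-30a-5p gave -0.70 (SE 0.37), miR-30e-5p -0.05 (SE 0.57) and miR-30b-5p 0.10 (SE 0.86). In all 1 of 7 members was called, where 4.96% of microRNAs were, and 4 of 7 were lower at an unadjusted p under 0.05, where 8.26% of microRNAs were. The median over the 7 members was -0.90 and that over all microRNAs 0.11. The red blood cell sum, with 2 of its 4 microRNAs higher at an adjusted p under 0.05 in edgeR, moved with this comparison, and its part was not tested.

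In VSD against NC amniotic fluid, 0 of 7 members were called by edgeR or by DESeq2, as for 0.0% of 245 microRNAs. miR-30d-5p ranged from 1096 to 7198 CPM in VSD (median 3205), with 5 of 7 samples below the lowest NC sample. It gave -0.82 (SE 0.34, 95% interval -1.53 to -0.10, edgeR adjusted p = 0.251) and was the 1 of 7 lower at an unadjusted p under 0.05, where 7.76% of microRNAs were. miR-30a-3p gave -0.52 (SE 0.29), and no VSD fluid reached its NC median. The other 5 members ran from -0.45 for miR-30a-5p (SE 0.31) to 0.30 for miR-30b-5p (SE 0.62), and the median over the 7 was -0.16, beside -0.06 over all microRNAs.

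Between VSD and non-VSD amniotic fluid all 7 log2 fold changes were above 0, from 0.14 to 2.47, and 0 of 7 were called by edgeR, as for 0.0% of 273 microRNAs. The median over the 7 was 0.31 and that over all microRNAs -0.04. The same non-VSD fluids stand in the comparison with NC, so the 2 comparisons are not independent. miR-30e-3p gave 2.47 (SE 0.69, 95% interval 1.05 to 3.89, edgeR adjusted p = 0.0785), and 6 of 7 VSD fluids exceeded every non-VSD fluid. DESeq2 called 1 of the 7 and 2.2% of all microRNAs. miR-30a-3p gave 0.94 (SE 0.34, edgeR adjusted p = 0.206) and miR-30c-5p 0.91 (SE 0.41, adjusted p = 0.358). These were the 3 of 7 members with an unadjusted p under 0.05, where 10.6% of microRNAs were in either direction.

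In maternal serum no member was called by edgeR, which called 0.0% of 219 microRNAs, or by DESeq2, which called 1.83%. All 7 log2 fold changes of VSD against NC were below 0. miR-30a-5p ranged from 4646 to 8944 CPM in NC (median 6985) and from 3606 to 6297 in VSD (median 5035), with all 7 VSD samples below the NC median and the ranges overlapping. miR-30e-5p ranged from 1783 to 3643 CPM in NC (median 2694) and from 1409 to 2757 in VSD (median 1850). It gave the largest value, -0.50 (SE 0.21, 95% interval -0.94 to -0.05, edgeR adjusted p = 0.306), and was the 1 of 7 lower at an unadjusted p under 0.05, where 5.02% of microRNAs were. The smallest was -0.26 for miR-30d-5p (SE 0.19, interval -0.67 to 0.14). The median over the 7 was -0.38 and over all microRNAs -0.03, and with the library total as scale the 7 values ran from -0.20 to -0.41 while the median over all microRNAs was 0.03. Marker sums moved with this comparison too, from a median of 8100 CPM in NC (3255 to 16275) to 4730 in VSD (1764 to 13386) for the 6 muscle microRNAs and from 50759 (36337 to 72016) to 69116 (48387 to 90715) for the 4 white blood cell microRNAs, with overlapping ranges and none of either list called by edgeR, and their part was not tested.

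Whether the VSD difference itself depended on the tissue was tested in one edgeR fit over the 3 tissues. This fit scaled libraries of both kits together and took all samples as independent, although samples of different tissues may share a dam. For myocardium against amniotic fluid 0 of 7 members were called (8.96% of 346 microRNAs), for myocardium against serum 0 of 7 (0.0%) and for amniotic fluid against serum 0 of 7 (3.18%). The members with an unadjusted p under 0.05 numbered 0, 1 and 0, against 25.7%, 9.54% and 15.9% of all microRNAs. The 1 member was miR-30c-5p, whose VSD difference was 0.81 higher on the log2 scale in myocardium than in serum (SE 0.36, edgeR adjusted p = 0.474).

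The ratio of the 5p to the 3p count within one hairpin compares strands in the same library and needs no scaling. Amniotic fluid libraries had another kit and sequencer, and for their ratios too the tissue and the kit cannot be told apart. With 0.5 added to each count, the median ratio of miR-30a was 101 in the 21 myocardium samples (range 43.6 to 308), 11.4 in the 14 serum samples (7.68 to 14.3) and 1.45 in the 21 amniotic fluid samples (0.612 to 5.42). That of miR-30e was 34.6 (15 to 158), 9.72 (6.05 to 14.1) and 2.09 (0.138 to 57.0). In myocardium and serum the 5p arm exceeded the 3p arm in every sample, and in amniotic fluid the 3p arm exceeded the 5p arm in 7 of 21 samples for miR-30a and in 5 of 21 for miR-30e. Over all hairpins with both arms past the filter, the median log2 ratio in NC was 0.50 in myocardium (158 hairpins), 1.12 in serum (36) and -0.12 in amniotic fluid (55), beside means of 6.88 ± 0.44, 3.48 ± 0.30 and 0.29 ± 0.68 for miR-30a (SD, n = 7).

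NC serum and NC myocardium differed in both ratios. For miR-30a the log2 ratio was lower in serum by -3.40 (SE 0.25, limma adjusted p = 9.42e-10) and for miR-30e by -1.69 (SE 0.27, limma adjusted p = 1.49e-05). In both, all 7 serum samples lay below every myocardium sample, with a two-sided exact permutation p of 0.000583, the smallest that 7 samples against 7 can give. By limma at an adjusted p under 0.05, ratios differed for 87.1% of the 101 hairpins tested here. How many of them separated completely was not counted, so the separation cannot be called particular to miR-30. As for the levels, preservation, extraction kit and the animal sampled cannot be told apart from the tissue.

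Against NC, the arm ratio of 1 member hairpin passed the test in 1 comparison. In amniotic fluid the miR-30e ratio ranged from 0.429 to 2.27 in NC with a median of 1.44, from 3.0 to 57.0 in non-VSD with a median of 5.0, and from 0.138 to 2.83 in VSD with a median of 1.87. With 0.5 added to each count, every non-VSD fluid lay above every NC fluid. That separation depended on the added count. Non-VSD replicate 7 had 1 count of the 5p arm and 0 of the 3p arm, behind its ratio of 3.0. With 1 added instead, this replicate would fall below NC replicate 2, which had 46 and 20 counts. Non-VSD fluids had more 5p than 3p counts in 7 of 7 samples. The log2 ratio was higher in non-VSD than in NC by 2.75 (SE 0.65, 95% interval 1.38 to 4.12, limma adjusted p = 0.0235). The two-sided exact permutation p was 0.000583, the smallest possible, and it rested on the same separation. The miR-30e hairpin was the 1 called of 37 tested (2.7%). With 0.5 added it was also the 1 whose groups did not overlap in this direction (2.7%).

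The counts behind this ratio were few. Non-VSD replicate 7 had 1 count of miR-30e-5p and 0 of miR-30e-3p, and replicate 4 had 28 and 0. Leaving out replicate 4 alone gave 2.25 (limma adjusted p = 0.0244) and replicate 7 alone 2.96 (limma adjusted p = 0.0269). Leaving out NC replicate 1, 3, 4, 5, 6 or 7 or non-VSD replicate 1 or 6 gave differences of 2.53 to 2.84 with limma adjusted p of 0.0504 to 0.0950.

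**Figure D5:**
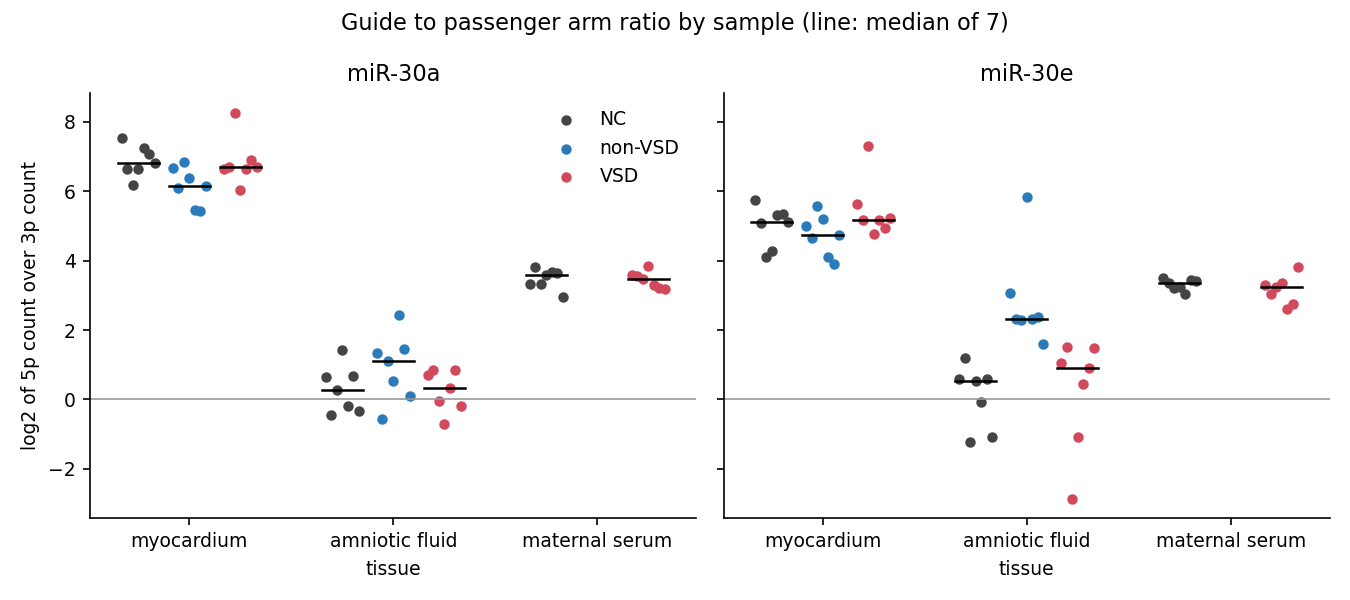
log2 of the 5p over the 3p count of miR-30a and miR-30e in each sample of the 3 tissues, coloured by group, with the group median as a line and a grey line where both arms are equal. Ratios are highest in myocardium (medians of 101 and 34.6) and near equality in amniotic fluid. With 0.5 added to each count, the 7 non-VSD fluids stand above the NC fluids for miR-30e.

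The other arm ratios were not called. In non-VSD myocardium the miR-30a ratio ranged from 43.6 to 114 (median 71.7) against 73.2 to 185 in NC (median 114), a log2 difference of -0.73 (SE 0.26, 95% interval -1.28 to -0.18, limma adjusted p = 0.0894, two-sided exact permutation p = 0.0192), and it was called without NC replicate 3 (-0.85, limma adjusted p = 0.0471) or non-VSD replicate 3 (-0.85, 0.0481), where limma called 10% and 10.3% of hairpins. The other 12 fits with 1 sample left out did not call the miR-30a ratio, with limma adjusted p up to 0.168. The miR-30e ratio differed in non-VSD myocardium by -0.27 (SE 0.30). Of the 2 ratios, 0 were called for myocardium non-VSD (6.21% of hairpins), myocardium VSD (5.88%), amniotic fluid VSD (0.0%) and serum VSD (0.0%). In myocardium VSD the differences were -0.04 for miR-30a (SE 0.30) and 0.45 for miR-30e (SE 0.36), in amniotic fluid VSD -0.04 (SE 0.42) and 0.13 (SE 0.69), and in serum -0.03 (SE 0.20) and -0.16 (SE 0.21). For miR-30a in non-VSD amniotic fluid the difference was 0.62 (SE 0.52, 95% interval -0.49 to 1.73), and a limma test gave an adjusted p of 0.534.

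The remaining passenger arms of the family, miR-30b-3p, miR-30c-1-3p, miR-30c-2-3p and miR-30d-3p, were scarce. In myocardium their medians were 0.00457%, 0.00309%, 0.0221% and 0.00520% of the library, and all 4 were tested. miR-30c-2-3p, the passenger strand of the Mir30c2 gene, ranged from 224 to 409 CPM in NC, from 147 to 260 in non-VSD and from 112 to 247 in VSD. It gave -0.55 in VSD (SE 0.20, edgeR adjusted p = 0.147) and -0.54 in non-VSD (SE 0.19, edgeR adjusted p = 0.131), with 5 of 7 samples below the lowest NC sample in each. The passenger strand of the other miR-30c gene, miR-30c-1-3p, gave -0.31 (SE 0.26) and 0.08 (SE 0.26). In amniotic fluid the 4 gave 26, 17, 267 and 94 counts over 21 samples, and in serum 30, 17, 113 and 34 over 14, and only miR-30c-2-3p in amniotic fluid passed the filter of a comparison with NC, with -0.39 in VSD (SE 0.95) and -1.44 in non-VSD (SE 1.09) against NC. In NC serum against NC myocardium, where the filter also kept them, all 4 were called lower by edgeR, at -2.65 for miR-30b-3p (SE 0.43), -2.68 for miR-30c-1-3p (SE 0.51), -2.97 for miR-30c-2-3p (SE 0.27) and -2.82 for miR-30d-3p (SE 0.46). Of the 6 passenger arms of the family, miR-30a-3p was the one with a positive value in that comparison.

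miR-384-5p, with the miR-30 seed but its own gene, was rare in myocardium, with a median of 0.000499% of the library and 1001 counts over 21 samples. It ranged from 0.835 to 13.6 CPM in NC (median 2.82), from 1.34 to 9.71 in non-VSD (median 2.83) and from 4.76 to 29.8 in VSD (median 9.79). It gave 1.16 in VSD against NC (SE 0.58, edgeR adjusted p = 0.266) and 1.36 in VSD against non-VSD (SE 0.57, edgeR adjusted p = 0.426), and 7 of 7 VSD samples lay above the median of either group. It was at 0 in all 14 DMO amniotic fluids and in 3 of the 7 NC fluids. The NC fluids gave 20 counts in all, at most 9 in a sample, and it did not pass the filter for a test there.

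Members followed one another to different degrees in the 3 tissues, given as Spearman's rho between log2 CPM values with no test. Both values of a pair come from one library, so its depth, scale and group act on both. Among the 10 pairs of guide arms, rho ran from 0.26 to 0.85 in 21 myocardium samples with a median of 0.74, from -0.01 to 0.92 in 14 serum samples with a median of 0.48, and from -0.19 to 0.61 in 21 amniotic fluid samples with a median of 0.18. The near-identical miR-30a-5p and miR-30e-5p had the highest value of the 10 pairs in serum (0.92), but 0.72 in myocardium and 0.16 in amniotic fluid, each below the median pair. The microRNAs outside the family whose pattern was most like the summed guide arms were miR-133a-5p (0.82), miR-191a-5p (0.82) and miR-362-5p (0.81) in myocardium, of 476 compared. miR-133a is a microRNA of heart and skeletal muscle. In amniotic fluid they were miR-337-3p (0.77), miR-382-3p (0.71) and miR-376b-3p (0.70) of 266, and in serum miR-125b-2-3p (0.74), miR-1b (0.72) and miR-361-3p (0.72) of 212.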

How the data were processed

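Per the labels, small RNA libraries were made with the TruSeq kit (myocardium, maternal serum) or the QIAseq kit (amniotic fluid). The authors converted reads with bcl2fastq 2.19, filtered them with the Fastx-toolkit, and deposited raw counts per mature microRNA in 5 tables. The aligner, annotation and genome build are not given in the sources used here. The 70 per-sample normalized columns, 4 mean columns and the authors' own comparisons (fold changes, p-values) were not used. A microRNA missing from 1 of a tissue's tables was set to 0 there. Whether molecular identifiers of the QIAseq kit were used in counting is not given in the sources used here.

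Samples were grouped by title. The members, marker lists (red and white blood cell, muscle, epithelium, liver) and tests were chosen with earlier results of these data known. Text names the 7 members, the other miR-30 passenger arms, miR-384-5p and, in each tissue, the 3 microRNAs most like the summed guide arms. Counts were filtered by filterByExpr (minimum count 10, minimum total 15), scaled by TMM and tested by edgeR 4.0.16 in R 4.3.3 (quasi-likelihood, Benjamini-Hochberg over all microRNAs tested). CPM values printed are TMM-scaled counts per 1000000. The log2 ratio of arms, with 0.5 added to each count, was tested by limma 3.58.1 over all hairpins with both arms past the filter, and by a two-sided exact permutation test over 3432 groupings. VSD and non-VSD were compared in 1 fit with NC, and the scripts were tested on simulated data. Alternatives were DESeq2 1.42.0, limma on log2(CPM + 1), other scalings and filters, a replicate block, and leaving out each sample. Depth ranged from 78188 to 9371130 counts, and intervals of counts cover counting error only.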

Additional observations from a re-analysis of the deposited data

Results flagged for a closer look

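Of 72 sets of 7 samples (each member's log2 CPM or arm ratio in each group), 8 had a sample standing apart from the other 6 by Dixon's test, which chance gives in about 1 in 20 sets. In the VSD myocardium library of replicate 3, the shallowest of its tissue with 1694811 counts, miR-30a-3p was low at 7.43 on the log2 CPM scale (the other samples 8.61 to 8.96), the log2 arm ratio of miR-30a was high at 8.27 (others 6.04 to 6.91) and that of miR-30e was high at 7.30 (others 4.76 to 5.65). In amniotic fluid miR-30b-5p had no count in NC replicate 1 and in non-VSD replicate 5, which both stand at 3.70 on this scale (others 6.60 to 8.20 and 6.71 to 8.63), and it was low at 6.82 in VSD replicate 1 (others 7.57 to 8.08). In non-VSD amniotic fluid replicate 4, miR-30c-5p was low at 5.94 (others 7.80 to 9.02) and the log2 arm ratio of miR-30e was high at 5.83 (others 1.58 to 3.06), with no count of miR-30e-3p. None of the 21 tests of a difference of the VSD effect between tissues, by edgeR over the 7 members, passed an adjusted p of 0.05.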

How the results depend on the processing

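Of 234 values of single members under alternatives other than leaving out a sample, 209 kept their direction and side of the threshold, and of 78 counts of called members and arm ratios 69 did. With DESeq2 the members called became 1 in VSD and 1 in non-VSD myocardium, 2 in non-VSD amniotic fluid and 1 in VSD against non-VSD fluid, where DESeq2 called 9.81%, 10.3%, 12% and 2.2% of all microRNAs. With a filter of at least 10 counts in every sample, 1 was called in non-VSD myocardium (8 of 366 microRNAs), and with the library total as scale 2 were called in non-VSD amniotic fluid. There the count was 0 without a filter and 0 with the replicate block (miR-30a-3p adjusted p = 0.201 in edgeR). Not every same-numbered pair correlated above 0.1, so the samples were taken to share only a number. Correlations ran from -0.62 to 0.47 in myocardium, -0.25 to 0.31 in amniotic fluid (-0.15 to 0.27 for NC with non-VSD, 2 of 7 pairs above 0.1) and -0.14 to 0.34 in serum, with 5 of 7 pairs above 0.1 in serum and between non-VSD and VSD myocardium. The block changed no other count of called members.

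Some log2 fold changes changed sign, among them miR-30a-3p in VSD myocardium (-0.41). In VSD myocardium miR-30b-5p became 0.36 (library total), 0.0050 (DESeq2), 0.0063 (replicate block), 0.0059 (limma) and 0.093 (at least 10 counts), miR-30e-5p 0.36 (library total) and 0.073 (at least 10 counts), and miR-30a-3p 0.041 (library total). In non-VSD myocardium the library total gave 0.13 for miR-30a-3p and 0.18 for miR-30e-3p. In VSD amniotic fluid miR-30e-5p became -0.080 (replicate block) and -0.082 (limma), and the miR-30a arm difference 0.073 from the edgeR values of its arms. Leaving out the 2 fluids with no miR-30e-3p count, chosen after seeing the data, gave -0.21 for miR-30b-5p and 0.27 for miR-30e-5p in non-VSD, and the miR-30a-3p call was lost (-1.40, edgeR adjusted p = 0.0531). It removes samples by the value of miR-30e-3p and is no test of that microRNA or its arm ratio. The cause was not tested.

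Leaving out each sample in turn gave 0 to 2 called members in non-VSD amniotic fluid, 0 to 1 in VSD and in non-VSD myocardium, and 0 in VSD amniotic fluid and serum. Arm differences of miR-30a ranged from -0.16 to 0.15 (VSD fluid), -0.12 to 0.026 (serum), -0.27 to 0.096 (VSD myocardium) and -0.85 to -0.61 (non-VSD myocardium), and those of miR-30e from -0.082 to 0.65 (VSD fluid) and 2.25 to 2.96 (non-VSD fluid). Single members whose sign changed ranged as follows. In VSD myocardium miR-30b-5p ran from -0.19 to 0.10, miR-30c-5p from -0.13 to 0.20 and miR-30e-5p from -0.38 to 0.066. In non-VSD myocardium miR-30c-5p ran from -0.018 to 0.33, miR-30a-3p from -0.23 to 0.063 and miR-30e-3p from -0.27 to 0.14. In VSD fluid miR-30e-5p ran from -0.079 to 0.43 and miR-30e-3p from -0.33 to 0.056, and in non-VSD fluid miR-30b-5p from -0.26 to 0.31 and miR-30e-5p from -0.35 to 0.17.

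Depth limits amniotic fluid most. Counts of miR-30e-3p there were 0 to 141 a sample, and under the filter of at least 10 counts in every sample 4 of 7 members could be tested for non-VSD and 6 of 7 for VSD.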
